A study of Homo sapiens with 12 samples.

Results

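The response of Ishikawa cells to copper chloride was read from the 6 Ishikawa libraries of a series of 12, taking every gene of the count table. Ishikawa is a line established from a human endometrial adenocarcinoma. Its 3 copper libraries came from cells kept for 24 h in 200 µM CuCl2, and its 3 control libraries from parallel cultures described in the labels as untreated in one place and as vehicle in another, and named untreated below. All cells, treated or not, grew in DMEM/F12 with fetal bovine serum and antibiotics, and the labels describe the replicates of a group as independent biological ones. The other 6 libraries, of the endometrial cancer line KLE under the same 2 conditions, were used only to ask where the 2 lines responded differently.

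Copper is an essential metal that becomes toxic in excess, when it generates oxidants, displaces other metals and binds thiols of proteins. Cells answer it with metallothioneins, chaperones and antioxidant enzymes, genes under the transcription factors MTF1, HSF1 and NRF2. Less is usually said about the genes that shape the cell and its exchange with the surroundings: secreted ligands and matrix, surface receptors, membrane transporters, the cytoskeleton, and the transcription factors that act on them. Those 5 groups are described here, split into 29 classes by gene symbol that hold 4494 genes.

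Of 20332 genes in the table, 13359 passed the filter on low counts, among them 2763 of the class genes. Values below are CPM (gene counts relative to library size) scaled with TMM factors, given for replicates 1, 2 and 3 in that order; a log2 fold change is followed by ± its standard error (SE), and adjusted p-values are from the edgeR quasi-likelihood test with Benjamini-Hochberg adjustment. Levels set between genes are TPM, which are scaled to transcript length but not with TMM factors. A change in TPM can therefore differ from the log2 fold change. In bulk libraries such as these, fewer cells of a kind and less RNA per cell cannot be told apart. Of the 70 genes named by rule, 18 overlap another gene in the annotation, THBS1 and DLL1 among them, and their reads may be shared with it. The rule asked that the treated libraries all lie beyond the untreated ones. Separation of the groups in a named gene was therefore set by the choice. The 6 libraries held 14050275 to 25057003 counts. The epithelial adhesion gene EPCAM stood at 841 ± 36.3 TPM without copper (mean ± SD, n = 3), and all 10 epithelial endometrial markers passed the filter. Stromal, leukocyte, neuronal and muscle marker lists summed to 16.8 to 64.1 TPM in untreated libraries, and the endothelial list to 122 to 174 TPM, nearly all of it EGFL7. Untreated replicate 2 stood apart: 45 genes lay there below 50% of both other controls, against 6 to 21 for the other 5 libraries, and DCN, LUM, COL6A3 and POSTN, transcripts of stromal cells, had no count in it. The class counts were therefore also taken without that library, and those values are printed below for some groups and classes only.

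Copper changed most of the transcriptome that could be tested. Of the 13359 genes, 9228 (69.1%) were called at an adjusted p under 0.05, 4514 higher (33.8%) and 4714 lower (35.3%). At least 2-fold changes were called for 2224 genes (16.6%), 1046 higher (7.83%) and 1178 lower (8.82%). The 3 treated libraries lay wholly above the 3 untreated ones for 4730 genes (35.4%) and wholly below for 4962 (37.1%). The balance of rises and falls depends on the scaling. Scaling to library totals gave 3370 higher (25.2%) and 6068 lower calls (45.4%) and moved the median log2 fold change of all genes from −0.013 to −0.167. Class counts below are to be read beside the shares over all genes under the same scaling. Without untreated replicate 2, 8767 of the 9228 calls and 2029 of the 2224 calls of at least 2-fold were kept in the same direction.

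**Figure D1:**
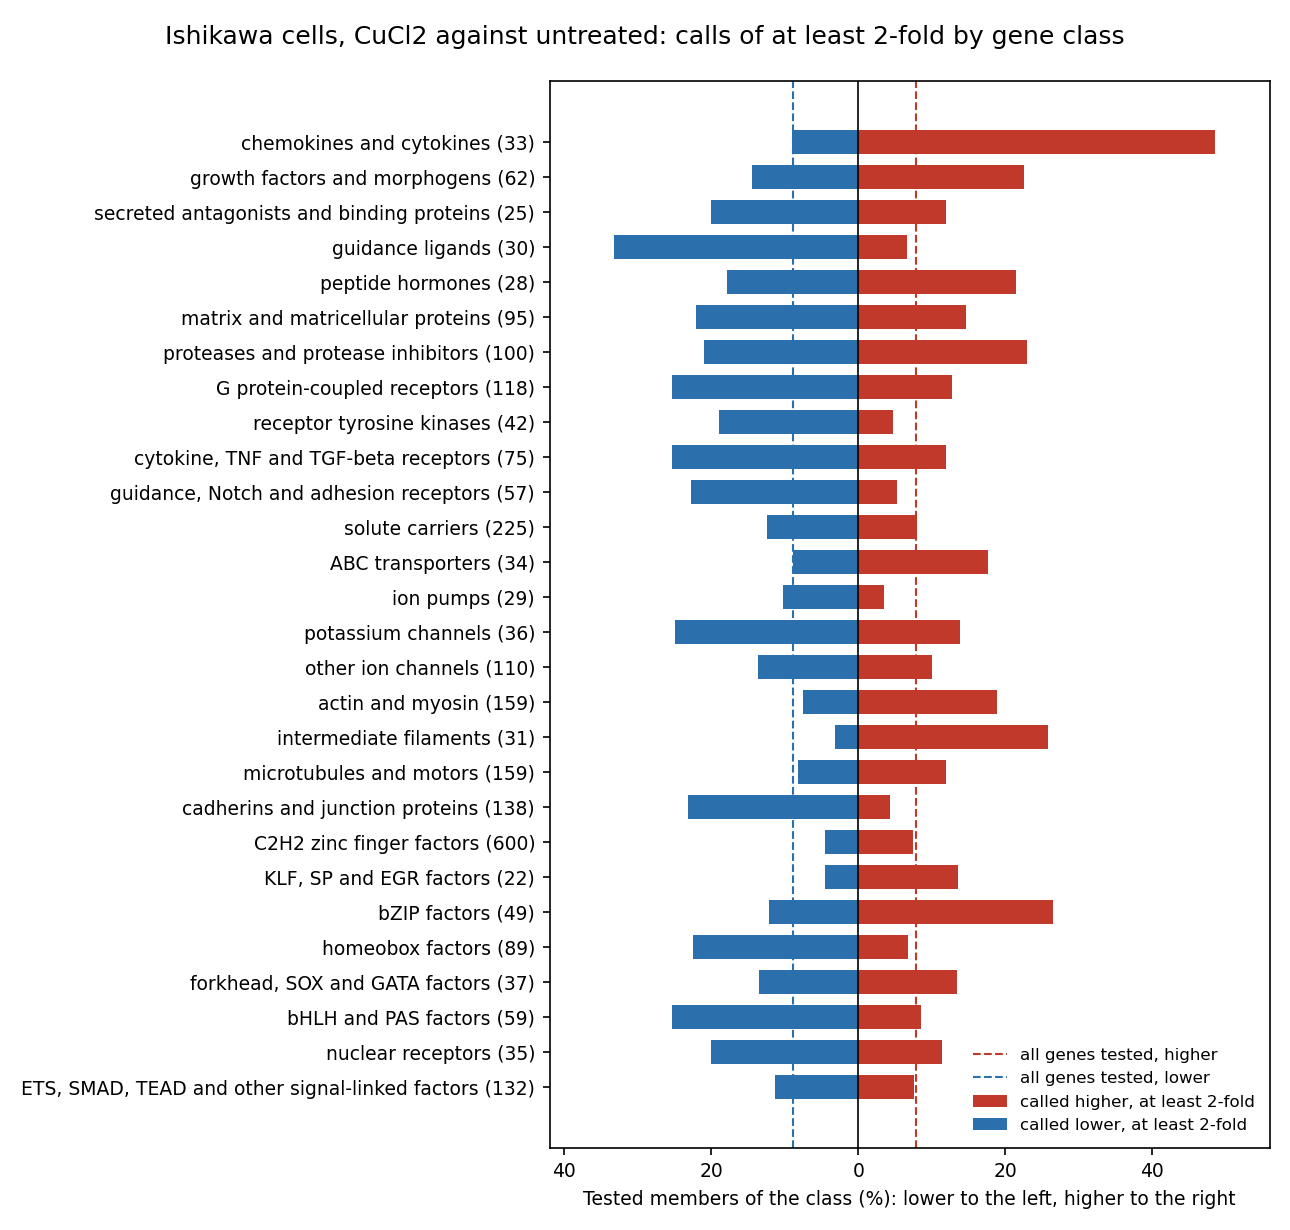
Share of the tested members of 28 of the 29 classes that were called at least 2-fold higher (red, to the right) or lower (blue, to the left) with copper in Ishikawa cells; the number tested is in brackets and dashed lines mark the shares over all genes tested, 7.83% and 8.82%. Chemokines and cytokines (48.5%), bZIP factors (26.5%) and intermediate filaments (25.8%) have the longest red bars, and guidance ligands (33.3%) the longest blue one.

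The secreted factors moved strongly in both directions. Of 373 tested, 78 rose and 74 fell at least 2-fold (20.9% and 19.8%), shares above those of all genes tested (7.83% and 8.82%). Without untreated replicate 2 they were 85 and 68 of 395. Chemokines and cytokines rose most often at the 2-fold rule. Of 33 tested, 16 were called higher (48.5%, against 7.83% of all genes) and 3 lower (9.09%, against 8.82%). The filter can pass a gene on its copper libraries alone. Without a count filter 22 of 94 members were called at least 2-fold higher (23.4%, against 8.02% of all genes). The median log2 fold change of these genes was 1.16 in the main fit (0.59 without untreated replicate 2, 0.74 without treated replicate 1 and 0.54 without a count filter). Among them CXCL8, the neutrophil-attracting interleukin 8 (ENSG00000169429, GRCh38 chromosome 4, 73740506 to 73743716), was counted at 2.84, 2.71 and 3.07 CPM without copper and at 106, 114 and 102 CPM with it. Both groups were tight within themselves, and the log2 fold change was 5.23 ± 0.09 (SE, adjusted p = 2.6e-15 by edgeR). IL11, a cytokine that signals through gp130, went from 0.129, 0.226 and 0.472 to 6.35, 6.91 and 5.59 CPM (log2 fold change 4.50 ± 0.31). IL32, another inflammatory cytokine, rose by 4.84 ± 0.23 and CLCF1, a further gp130 ligand, by 3.29 ± 0.14 on the log2 scale. IL6ST, which encodes gp130 itself, rose by 0.58 ± 0.05. CCL20, a chemokine for CCR6-bearing lymphocytes, rose by 4.12 ± 0.40, a value that depends on single controls, since it was 3.43 without untreated replicate 2 and 4.83 without untreated replicate 3. TNFSF10, the death ligand TRAIL, had the largest fall of the class by the naming rule, from 6.33, 4.36 and 6.55 to 1.89, 1.14 and 1.34 CPM (log2 fold change −1.95 ± 0.24).

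Of 62 growth factors tested, 24 were called higher and 23 lower (38.7% and 37.1%, against 33.8% and 35.3% of all genes). At least 2-fold changes were called higher for 14 and lower for 9 (22.6% and 14.5%, against 7.83% and 8.82%). DLL1, a membrane-bound ligand of Notch receptors (ENSG00000198719, chromosome 6, 170282206 to 170306565), was counted at 2.65, 3.27 and 3.01 CPM in untreated and at 222, 264 and 221 CPM in copper-treated cells. The log2 fold change was 6.28 ± 0.10 (adjusted p = 2.6e-15 by edgeR). In TPM the ligand went from 1.70 to 118. IGF2, the fetal insulin-like growth factor, went from 0.840, 0.113 and 1.06 to 56.6, 51.8 and 56.1 CPM. Untreated replicate 2 was the lowest control, and the log2 fold change of 6.54 ± 0.29 became 5.82 without it and 7.13 without untreated replicate 3; reads of IGF2 may be shared with the overlapping readthrough gene INS-IGF2. The EGF receptor ligands AREG and EGF rose by 3.78 ± 0.27 and 2.49 ± 0.12. Falls included WNT3A, a ligand of canonical Wnt signaling, from 6.14, 7.86 and 6.67 to 1.16, 0.661 and 1.12 CPM (log2 fold change −2.83 ± 0.23). MDK, the heparin-binding growth factor midkine and the largest loss of the class in TPM, went from 480 to 288 TPM (log2 fold change −0.54 ± 0.06).

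Matrix genes fell more often than they rose, 45 against 22 of 95 tested (47.4% and 23.2%, against 35.3% and 33.8% of all genes). Their median log2 fold change of −0.38 depends on the libraries kept and on the filter. It was −0.14, −0.23 and −0.09 without untreated replicate 1, 2 or 3. It was −0.09 without treated replicate 2 and 0.12 without a count filter. Yet the adhesive matricellular proteins were among the largest gains of the class. THBS1, thrombospondin 1 (ENSG00000137801, chromosome 15, 39581079 to 39599466), stood at 28.4, 24.9 and 28.4 CPM in untreated libraries and at 666, 759 and 701 CPM in treated ones. The log2 fold change was 4.71 ± 0.07 (adjusted p = 3.7e-16 by edgeR). CCN1 and CCN2, integrin-binding matricellular proteins, rose by 2.09 ± 0.05 and 1.89 ± 0.07, CCN1 from 273 to 1022 TPM. LAMB3, the beta chain of laminin 332, rose by 2.90 ± 0.07. In contrast, LAMC1 and LAMA5, chains of other laminins, fell by 0.63 ± 0.04 and 1.00 ± 0.13, and the microfibril protein FBN2 fell by 1.40 ± 0.04, from 134 to 44.8 TPM. Without untreated replicate 2 the log2 fold change of LAMA5 was −0.85. COL8A2, a short-chain collagen, went from 6.53, 8.69 and 7.43 to 1.46, 0.901 and 1.12 CPM (log2 fold change −2.70 ± 0.21).

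Proteases and their inhibitors were called at least 2-fold higher in 23 and lower in 21 of 100 tested, against 7.83% and 8.82% of all genes. Without untreated replicate 2 they were 25 and 17 of 104. PI3, the elastase inhibitor elafin, had 0.323, 0.188 and 0.767 CPM in untreated and 15.4, 15.0 and 15.1 CPM in treated libraries. The treated values hardly differed among themselves, and the log2 fold change of 5.24 ± 0.26 became 5.94 without untreated replicate 3. The stromelysin MMP10 rose by 4.45 ± 0.33, the metalloprotease ADAMTS1 by 2.36 ± 0.06 and the serine protease inhibitor TFPI2 by 2.41 ± 0.09. Carboxypeptidase M, a membrane enzyme whose gene symbol is the same as the abbreviation of the unit, fell from 20.3, 22.2 and 21.9 to 2.81, 3.12 and 3.36 in that unit (log2 fold change −2.80 ± 0.12). TMPRSS2, a membrane serine protease, fell by 1.35 ± 0.07 and the epididymal secretory protein WFDC2 by 0.64 ± 0.06.

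Guidance ligands, proteins that attract or repel migrating cells, fell more often than they rose. Of 30 tested, 17 were called lower and 5 higher (56.7% and 16.7%, against 35.3% and 33.8% of all genes). Falls of at least 2-fold were called for 10 (33.3%, against 8.82%), and for 10 also without untreated replicate 2. SEMA3D, a secreted semaphorin, was counted at 15.1, 16.2 and 15.6 CPM and fell to 1.10, 0.601 and 0.895 CPM. The log2 fold change was −4.17 ± 0.18 (adjusted p = 4.9e-11 by edgeR). SEMA4B, SEMA4G and SEMA3F fell by 1.78 ± 0.09, 2.38 ± 0.13 and 1.62 ± 0.09, and the ephrin EFNB3 by 2.78 ± 0.15. SEMA7A, the only member that the naming rule took as a rise, went from 1.94, 1.65 and 1.89 to 3.54, 5.10 and 4.25 CPM (log2 fold change 1.24 ± 0.22).

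Among secreted antagonists and binding proteins 11 of 25 were called lower and 4 higher (44.0% and 16.0%, against 35.3% and 33.8% of all genes). With library totals the calls were 14 and 2. IGFBP3, a carrier of insulin-like growth factors, fell from 361, 375 and 364 to 117, 103 and 117 CPM (log2 fold change −1.71 ± 0.06), and the BMP antagonist GREM1 rose by 1.55 ± 0.24. Peptide hormones gave 7 calls higher and 10 lower of 28 tested. The first of these counts depended on the filter. It was 11, 12 and 12 of 33 when untreated replicate 1, 2 or 3 was left out, which let more genes pass. Without a count filter it was 13. EDN1, the vasoconstrictor endothelin 1, rose from 0.775, 1.43 and 1.47 to 7.45, 8.59 and 6.78 CPM (log2 fold change 2.60 ± 0.22). The natriuretic peptide gene NPPC rose from 0.0646, 0.113 and 0.0590 to 6.78, 6.85 and 6.34 CPM. It had only 5 counts in the 3 untreated libraries together, so the size of its rise is uncertain. NMU, neuromedin U, fell by 1.81 ± 0.18. STC1, the glycoprotein hormone stanniocalcin 1 and the most abundant of the class before copper, fell from 697 to 267 TPM (log2 fold change −1.19 ± 0.04).

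Several of the risen genes carried an AP-1 site, the letters TGACTCA or their reverse complement, in the 150 bases before the RefSeq gene start (build GRCh38.p14). AP-1 sites are bound by dimers of FOS, JUN and ATF family proteins. The stretches of CXCL8, IL11 and LAMB3 are shown because these secreted genes rose strongly, and those of TUBB3, a neuronal beta-tubulin, and F2RL2, the thrombin-related receptor PAR3, because they rose from low levels in other groups. They lie at chr4:73740419-73740568 (plus strand), chr19:55370464-55370613 (minus), chr1:209651375-209651524 (minus), chr16:89921775-89921924 (plus) and chr5:76623404-76623553 (minus). Capitals mark the AP-1 site, which begins at base −137, −96, −67, −21 and −37, counting −1 as the base before the start.
CXCL8: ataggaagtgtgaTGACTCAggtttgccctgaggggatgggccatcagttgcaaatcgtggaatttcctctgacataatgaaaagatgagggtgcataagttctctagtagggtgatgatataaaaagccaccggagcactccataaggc
IL11: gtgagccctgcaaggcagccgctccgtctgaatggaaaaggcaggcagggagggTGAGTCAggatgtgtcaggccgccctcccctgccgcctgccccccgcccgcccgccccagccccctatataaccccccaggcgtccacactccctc
LAMB3: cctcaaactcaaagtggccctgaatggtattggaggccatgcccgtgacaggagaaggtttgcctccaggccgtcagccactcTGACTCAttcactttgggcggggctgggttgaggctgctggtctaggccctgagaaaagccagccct
TUBB3: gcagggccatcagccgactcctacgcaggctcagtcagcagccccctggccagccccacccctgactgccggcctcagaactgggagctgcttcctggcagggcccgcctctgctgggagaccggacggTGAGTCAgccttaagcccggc
F2RL2: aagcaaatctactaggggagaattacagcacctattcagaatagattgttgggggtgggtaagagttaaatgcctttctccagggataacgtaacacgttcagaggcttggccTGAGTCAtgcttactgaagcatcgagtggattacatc

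Receptors fell more often than they rose. Of 292 tested, 144 were called lower and 76 higher (49.3% and 26.0%, against 35.3% and 33.8% of all genes). At least 2-fold, 70 fell and 29 rose (24.0% and 9.93%, against 8.82% and 7.83%). The median log2 fold change was −0.34. Without untreated replicate 2 the 2-fold counts were 64 and 34 of 302. The count of 29 depends on weakly expressed receptors, being 19 when CPM above 1 in 3 libraries was asked for and 54 without a count filter, where the median was −0.04.

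G protein-coupled receptors included 30 falls and 15 rises of at least 2-fold among 118 tested (25.4% and 12.7%, against 8.82% and 7.83%). LGR5, a receptor for R-spondins that marks epithelial stem cells, was counted at 47.7, 51.0 and 46.8 CPM and fell to 9.28, 10.1 and 7.16 CPM (log2 fold change −2.44 ± 0.11, adjusted p = 4.9e-11). All 3 treated libraries lay below the lowest control, as the naming rule asks. CALCRL, the receptor of adrenomedullin and CGRP, fell by 1.80 ± 0.07 and the Wnt receptor FZD5 by 0.98 ± 0.05. ADRA2B, an alpha-2 adrenergic receptor, rose from 1.10, 0.940 and 0.944 to 7.26, 8.59 and 5.14 CPM (log2 fold change 2.83 ± 0.24). F2RL2, whose promoter is shown above, rose from 0.0646, 0.0376 and 0.354 to 13.9, 13.1 and 11.6 CPM, a log2 fold change of 6.49 ± 0.33 that was 5.84 without untreated replicate 2 and 7.87 without untreated replicate 3.

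Of 42 receptor tyrosine kinases 22 were called lower and 6 higher (52.4% and 14.3%, against 35.3% and 33.8% of all genes). ROR2, a receptor of noncanonical Wnt ligands, fell from 6.59, 8.09 and 6.96 to 0.855, 1.62 and 0.522 CPM (log2 fold change −2.81 ± 0.27). EPHB3, an ephrin receptor, fell by 1.89 ± 0.09, and ERBB2 and ERBB3, which pair with each other as growth factor receptors, fell by 0.72 ± 0.07 and 0.74 ± 0.05, ERBB2 from 149 to 76.2 TPM. DDR2, a collagen-activated kinase, went the other way, from 2.03 ± 0.483 CPM (mean ± SD, n = 3) to 6.10, 6.91 and 7.16 CPM (log2 fold change 1.76 ± 0.20), and the receptor-like kinase STYK1 rose by 1.41 ± 0.10.

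Cytokine, TNF and TGF-beta receptors had 37 calls lower and 25 higher of 75 (49.3% and 33.3%, against 35.3% and 33.8% of all genes). LRRC32, which holds latent TGF-beta at the cell surface, fell from 94.7, 112 and 97.8 to 11.0, 12.3 and 11.2 CPM. TNFRSF12A, the receptor of the cytokine TWEAK, rose from 11.1, 13.8 and 11.4 to 40.1, 42.6 and 40.3 CPM (log2 fold change 1.74 ± 0.09). TLR6, a receptor for bacterial lipopeptides that overlaps TLR1 in the annotation, rose by 2.60 ± 0.21. Guidance, Notch and adhesion receptors had 32 of 57 called lower and 13 higher (56.1% and 22.8%, against 35.3% and 33.8% of all genes). PLXNA4, a semaphorin receptor, fell from 12.5, 15.0 and 12.6 to 1.10, 0.901 and 1.12 CPM (log2 fold change −3.69 ± 0.17), so that a semaphorin and a plexin had the largest falls of secreted factors and of receptors by the naming rule. The integrin chain ITGA6 fell by 1.06 ± 0.05, while the hyaluronan receptor CD44 rose by 1.07 ± 0.06. LRP1B, a giant endocytic receptor, rose from 0.840, 1.05 and 1.06 to 6.96, 6.19 and 6.86 CPM.

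Of 434 transporters and channels tested, 41 rose and 58 fell at least 2-fold (9.45% and 13.4%, against 7.83% and 8.82% of all genes); with library totals the counts were 35 and 78, and without untreated replicate 2 they were 51 and 57 of 450. The 225 solute carriers held 61 calls higher and 93 lower (27.1% and 41.3%, against 33.8% and 35.3% of all genes). With library totals the calls were 40 and 117. SLC1A1, a neuronal and epithelial glutamate and cysteine carrier, fell from 10.1, 11.4 and 10.6 to 1.28, 1.26 and 1.34 CPM (log2 fold change −3.05 ± 0.17). The 3 treated libraries were almost equal. SLC34A2, a sodium-phosphate carrier of epithelia, lost most in TPM among those tested after the mitochondrial carrier SLC25A5, going from 182 to 52.7 TPM (log2 fold change −1.56 ± 0.05). SLC7A11 and SLC3A2, the light and heavy chains of the cystine-glutamate exchanger, rose by 1.36 ± 0.06 and 0.81 ± 0.10, SLC7A11 from 267, 270 and 294 to 664, 779 and 690 CPM. SLC7A5, which pairs with SLC3A2 to carry large neutral amino acids, rose by 0.82 ± 0.05. SLC45A4, a little-studied carrier, had the largest rise of the class by the naming rule, 1.46 ± 0.12.

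The ABC transporters were called higher in 19 and lower in 9 of 34 (55.9% and 26.5%, against 33.8% and 35.3% of all genes). Their median log2 fold change was 0.30. With library totals the calls were 15 and 11 and the median 0.14. ABCC2, which exports glutathione conjugates, rose from 1.74, 1.88 and 1.06 to 11.0, 10.6 and 10.8 CPM (log2 fold change 2.76 ± 0.19), and the porphyrin transporter ABCB6 rose by 0.93 ± 0.07. ABCC6, for which near-identical pseudogenes exist, fell by 1.65 ± 0.27. Ion pumps were called higher in 9 and lower in 12 of 29 (31.0% and 41.4%, against 33.8% and 35.3% of all genes). With library totals the calls were 6 and 16. ATP1B2, a beta chain of the sodium pump, rose from 1.23, 1.09 and 1.65 to 4.27, 3.66 and 3.80 CPM (log2 fold change 1.58 ± 0.24). The phospholipid flippase ATP8B1 fell by 0.85 ± 0.04.

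Potassium channels fell in 19 and rose in 8 of 36 tested (52.8% and 22.2%, against 35.3% and 33.8% of all genes). Their median log2 fold change was −0.61 (−0.35 without a count filter). KCNE3, an accessory subunit of epithelial potassium channels and the most abundant in TPM of those that fell, went from 547, 512 and 551 to 314, 304 and 307 CPM (log2 fold change −0.80 ± 0.04). KCNK6, a leak channel, fell by 1.47 ± 0.18, and KCNAB2, a cytoplasmic beta subunit, rose from 0.582, 0.564 and 0.531 to 3.66, 3.96 and 4.10 CPM (2.79 ± 0.26). The other ion channels were called higher in 28 and lower in 43 of 110 (22 and 50 with library totals), and genes of anion transport stood on both sides. Among the falls, CLIC6 went from 4.85, 4.40 and 4.90 to 0.549, 0.601 and 0.298 CPM, TTYH2 from 9.11, 10.3 and 9.91 to 1.16, 0.901 and 1.27 CPM, and the calcium-activated channel ANO1 from 308, 336 and 305 to 159, 169 and 161 CPM. LRRC8A, the essential subunit of the volume-regulated anion channel, rose from 71.1, 84.6 and 69.1 to 176, 194 and 175 CPM (log2 fold change 1.27 ± 0.07). BEST1, another anion channel, rose by 3.50 ± 0.22, but it overlaps FTH1 on the opposite strand and no source used here gives the strand setting of the counting.

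The cytoskeleton and adhesion genes divided by class. Actin and myosin genes were called higher in 80 and lower in 40 of 159 tested (50.3% and 25.2%, against 33.8% and 35.3% of all genes). At the 2-fold rule these were 30 and 12 (18.9% and 7.55%, against 7.83% and 8.82%). The median log2 fold change was 0.30. With library totals the calls were 72 and 56 and the median 0.14. Without untreated replicate 2 the counts were 83 and 44 of 160. ARC, an immediate-early gene of the synaptic actin cytoskeleton, was counted at 0.517, 0.339 and 0.649 CPM in untreated and at 240, 297 and 240 CPM in treated libraries (log2 fold change 9.07 ± 0.16, adjusted p = 1.2e-12). ACTA1, the actin of skeletal muscle (ENSG00000143632, chromosome 1, 229431245 to 229434098), went from 0.840, 0.940 and 0.944 to 51.9, 58.9 and 53.4 CPM. The controls fell within a narrow range, and the log2 fold change was 5.89 ± 0.13 (adjusted p = 2.2e-14 by edgeR).

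Several other genes known from contractile cells, chosen as examples after their values were seen, also rose. The smooth muscle genes TAGLN, ACTA2 and CNN1 rose by 4.03 ± 0.06, 2.71 ± 0.11 and 3.52 ± 0.24, TAGLN from 16.0, 15.7 and 14.9 to 254, 252 and 259 CPM. The sarcomere and Z-disc genes ACTN2, PDLIM3 and FLNC rose by 4.19 ± 0.14, 4.12 ± 0.24 and 3.16 ± 0.09. In abundance the larger change lay in the cytoplasmic actins: ACTB went from 2817 to 3954 TPM (log2 fold change 0.67 ± 0.04), ACTG1 from 3118 to 4375 TPM (0.70 ± 0.05), the myosin light chain MYL6 from 1132 to 1645 TPM (0.73 ± 0.05) and the actin-sequestering peptide TMSB4X from 498 to 884 TPM (1.01 ± 0.07). Actins are nearly identical in their coding sequence, so how reads were shared among them bears on ACTA1, ACTA2 and ACTG2. Of the muscle marker list, which sums to 16.8 to 20.1 TPM without copper and 74.3 to 85.2 TPM with it, the rise was almost all ACTA1. The giant sarcomere protein gene TTN was also called higher, at 0.407 and 0.548 TPM (log2 fold change 1.08). MYH7, MYH1, MYL1 and MYL2 had 0 counts in the untreated libraries and at most 0.163 TPM in any treated one, MYOG was at 0 with copper, and TNNT1 fell from 15.3 to 6.99 TPM. DAAM2, a formin, fell by 1.97 ± 0.27, and MARCKSL1, an actin-binding membrane protein, fell from 223 to 74.8 TPM (log2 fold change −1.39 ± 0.06).

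A CArG box, the letters CC, a run of A or T, and GG that serum response factor (SRF) binds, was found before the RefSeq start of ACTA1, of ACTG2, a smooth muscle actin, and of ARHGDIB, a regulator of small GTPases. ACTA1 and ARHGDIB are the 2 of 20 risen named genes with a promoter that hold it, against 2 of 29 that fell. ACTG2 is shown as an example, and matches in the other actin genes are not listed here. The stretches lie at chr1:229434095-229434244 (minus strand), chr2:73892858-73893007 (plus) and chr12:14948897-14949046 (minus) of GRCh38.p14. Capitals mark the boxes, which begin at base −97 in ACTA1, −110 and −73 in ACTG2 and −85 in ARHGDIB.
ACTA1: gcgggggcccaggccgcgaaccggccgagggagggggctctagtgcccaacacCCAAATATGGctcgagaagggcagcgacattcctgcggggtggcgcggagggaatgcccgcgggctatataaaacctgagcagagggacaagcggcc
ACTG2: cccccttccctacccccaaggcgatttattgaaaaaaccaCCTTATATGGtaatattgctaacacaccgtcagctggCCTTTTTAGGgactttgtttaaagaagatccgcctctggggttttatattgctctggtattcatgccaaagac
ARHGDIB: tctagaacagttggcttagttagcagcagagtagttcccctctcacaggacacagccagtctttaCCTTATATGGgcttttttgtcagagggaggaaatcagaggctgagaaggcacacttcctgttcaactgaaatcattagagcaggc

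ACTG2 rose from 0.840, 0.827 and 0.826 to 2.87, 3.24 and 3.50 CPM (log2 fold change 1.94 ± 0.25), and ARHGDIB from 2.84, 2.48 and 3.89 to 14.6, 14.6 and 14.8 CPM (2.28 ± 0.16). SRF itself rose from 66.2, 73.9 and 63.4 to 134, 142 and 132 CPM (1.00 ± 0.06). The box was also present before 2 named genes that fell, the transcription factor genes NR2F1 and TCF7.

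Intermediate filament genes were called higher in 12 and lower in 8 of 31 (38.7% and 25.8%, against 33.8% and 35.3% of all genes). At the 2-fold rule these were 8 and 1 (25.8% and 3.23%, against 7.83% and 8.82%). Their median log2 fold change of 0.53 was 0.24 without untreated replicate 2. KRT17, a keratin of stressed and basal epithelium, rose from 0.775, 1.09 and 1.18 to 45.8, 46.1 and 46.7 CPM (log2 fold change 5.47 ± 0.13, adjusted p = 6.4e-14). The treated libraries differed from one another by less than 1 CPM. KRT80 rose by 2.70 ± 0.09 and the neurofilament gene NEFH by 3.44 ± 0.15. The simple-epithelial keratins, far more abundant, went down: KRT8 from 1167 to 628 TPM (log2 fold change −0.71 ± 0.05) and KRT18 from 828 to 548 TPM (−0.41 ± 0.06). The 10 epithelial markers, which include both, summed to 3737 to 4235 TPM without and 2608 to 2733 TPM with copper. Of the 10, 6 were called lower and 1 higher. Part of a fall in TPM can come from the missing TMM factor: EPCAM went from 841 to 762 TPM at a log2 fold change of 0.04 (adjusted p = 0.482 by edgeR). The nuclear lamins LMNB1 and LMNA fell by 1.13 ± 0.05 and 0.88 ± 0.07, LMNB1 from 255, 249 and 257 to 118, 116 and 113 CPM.

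Microtubule and motor genes were called higher in 55 and lower in 60 of 159, near the shares of all genes (34.6% and 37.7% against 33.8% and 35.3%). The balance depends on the scaling, being 42 and 75 with library totals and 46 and 73 with upper-quartile factors. MAP1B, a neuronal microtubule-associated protein (ENSG00000131711, chromosome 5, 72107234 to 72209570), rose from 18.8, 15.5 and 16.7 to 475, 500 and 470 CPM (log2 fold change 4.84 ± 0.07, adjusted p = 2.2e-16). Its relative MAP1A rose from 12.1, 11.0 and 11.4 to 224, 249 and 218 CPM (4.33 ± 0.07). TUBB3 rose from 4.52, 4.40 and 3.54 to 52.6, 58.3 and 49.7 CPM (3.68 ± 0.11), the dendritic protein gene MAP2 by 2.33 ± 0.12 and the tubulin glutamylase TTLL7 by 2.82 ± 0.08. The 12 neuronal markers summed to 17.8 to 19.3 TPM without and 67.0 to 74.8 TPM with copper, most of it TUBB3. Of the 5 that passed the filter, TUBB3 and the synaptic vesicle gene SYN1 were called higher (SYN1 by 0.92, adjusted p = 0.0251) and 2 lower. GAD2, ELAVL3, ELAVL4, STMN2 and SLC17A6 had 0 counts without copper and at most 0.120 TPM in any treated library, and SNAP25 and GAD1 fell from 7.46 to 2.95 and from 4.18 to 2.43 TPM. The mitotic kinesin KIF20A fell from 166, 163 and 170 to 37.2, 32.5 and 38.5 CPM (log2 fold change −2.21 ± 0.06), and the abundant beta-tubulin TUBB and the tubulin-sequestering STMN1 fell by 0.26 ± 0.04 and 0.64 ± 0.05.

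Cadherins and junction proteins fell in 70 and rose in 26 of 138 tested (50.7% and 18.8%, against 35.3% and 33.8% of all genes). At the 2-fold rule 32 fell and 6 rose (23.2% and 4.35%, against 8.82% and 7.83%). Without untreated replicate 2, 32 of 146 fell. The median log2 fold change was −0.32 (−0.13 without a count filter). The count of 6 was 11, 10 and 11 without untreated replicate 1, 2 or 3. P-cadherin (CDH3) fell from 170, 177 and 165 to 73.4, 76.8 and 68.4 CPM (log2 fold change −1.23 ± 0.06), while E-cadherin (CDH1), the main cadherin by TPM, fell by only 0.21 ± 0.04. PCDHGC4, a gamma-protocadherin that shares exons with the rest of its cluster, went from 3.17, 4.74 and 3.19 to 0.183, 0.841 and 0.820 CPM. CNTN5, a neuronal contactin, rose from 0.452, 0.827 and 0.236 to 9.71, 6.97 and 9.54 CPM, a log2 fold change of 3.98 ± 0.29 that was 4.64 without untreated replicate 2. ARHGAP28, a GTPase-activating protein, fell from 9.76, 8.27 and 9.73 to 1.95, 1.68 and 1.27 CPM (log2 fold change −2.48 ± 0.18). RAPGEF4, the cyclic AMP sensor EPAC2, fell by 2.29 ± 0.22.

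**Figure D2:**
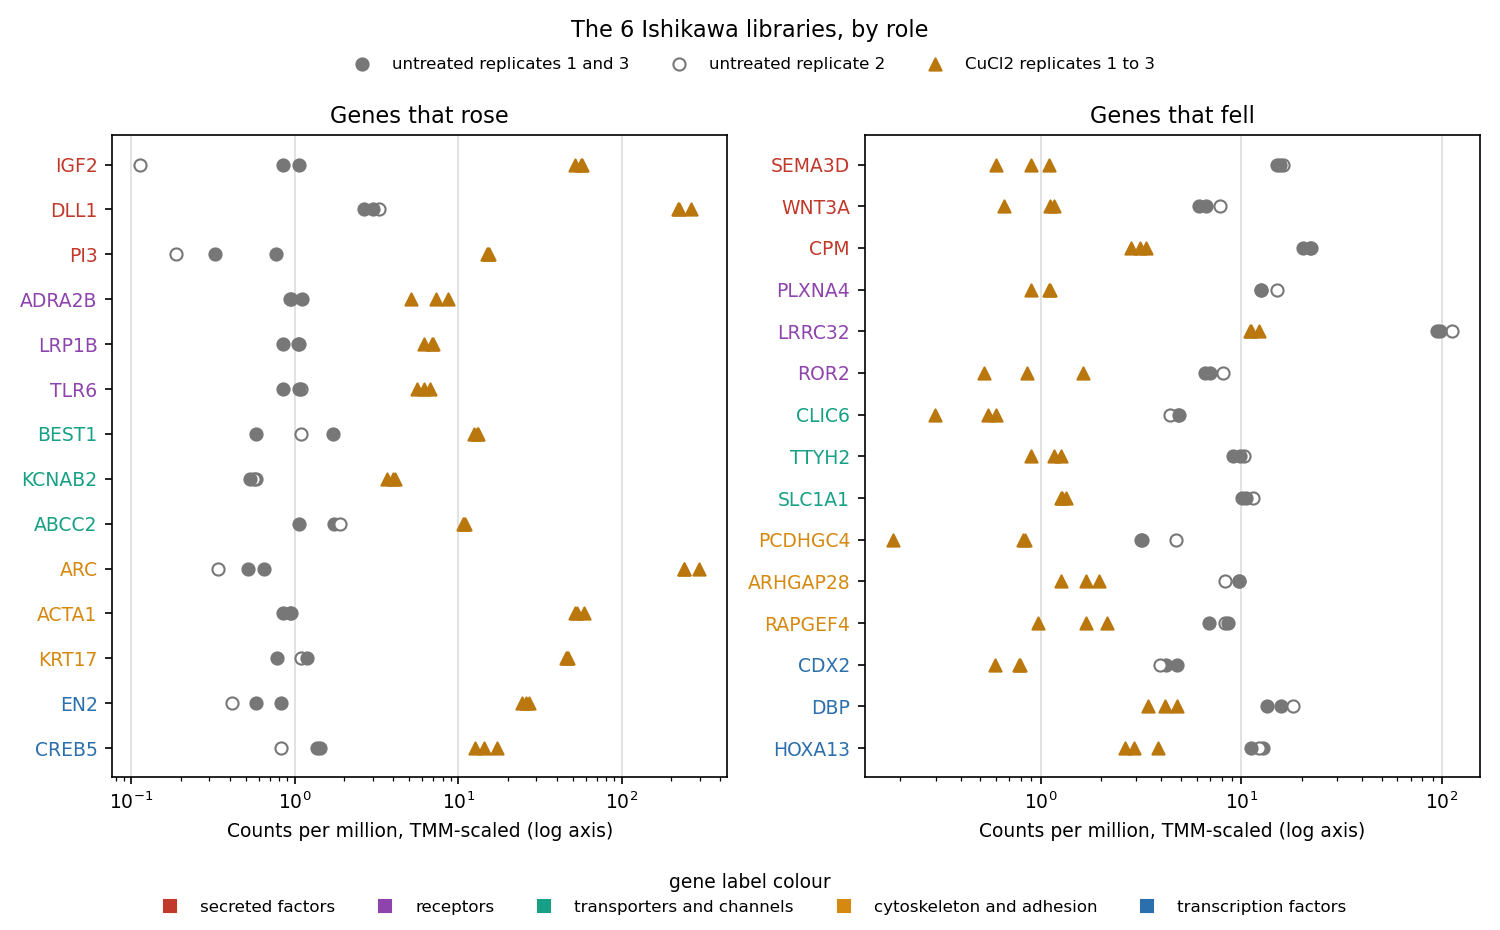
TMM-scaled CPM in each of the 6 Ishikawa libraries on a log axis for the largest rises (left) and falls (right) of each of the 5 roles by the naming rule, up to 3 a role; circles are untreated libraries, the open circle untreated replicate 2, and triangles the copper-treated libraries. In every gene the 3 triangles lie beyond the 3 circles, as the rule asks. Examples are ARC, with at least 240 CPM against at most 0.649, and DBP, with at most 4.76 CPM against at least 13.5.

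Transcription factors as a whole changed about as often as all genes tested. Of 1023, 91 rose and 96 fell at least 2-fold (8.90% and 9.38%, against 7.83% and 8.82%). Without untreated replicate 2 these were 91 and 94 of 1029. With library totals they were 74 and 149. The counts of the families ran in different directions. The bZIP factors, which include the AP-1 proteins, rose in 29 and fell in 10 of 49 (59.2% and 20.4%, against 33.8% and 35.3% of all genes). Their median log2 fold change was 0.36 (0.21 with library totals). FOSL1, a FOS-family protein, rose from 13.2, 12.7 and 13.3 to 99.4, 90.0 and 83.1 CPM (log2 fold change 2.80 ± 0.08), and ATF3, a stress-induced partner of JUN proteins, from 13.1, 15.3 and 15.2 to 164, 169 and 157 CPM (3.48 ± 0.07). CREB5 rose from 1.42, 0.827 and 1.36 to 14.3, 17.3 and 12.7 CPM (3.68 ± 0.20), the largest rise of the class by the naming rule. The small MAF proteins MAFF and MAFG rose by 2.51 ± 0.10 and 1.69 ± 0.10. The classic early members moved little at 24 h: FOSB by 0.76 ± 0.09 and FOS by 0.31 ± 0.07, and JUN, at 76.7, 105 and 93.4 CPM without and 98.0, 102 and 93.3 CPM with copper, did not pass the test (adjusted p = 0.478). DBP, a clock-output factor, fell from 15.7, 18.1 and 13.5 to 4.76, 3.42 and 4.18 CPM.

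Homeobox factors fell in 49 and rose in 13 of 89 tested (55.1% and 14.6%, against 35.3% and 33.8% of all genes). At the 2-fold rule 20 fell and 6 rose (22.5% and 6.74%, against 8.82% and 7.83%). Without untreated replicate 2 these were 21 and 6 of 90. Their median log2 fold change of −0.55 was the lowest among the transcription factor classes (−0.30 without a count filter). PAX8, a factor of Müllerian epithelium grouped here by its paired domain, fell from 464, 501 and 424 to 277, 273 and 266 CPM (log2 fold change −0.77 ± 0.06). HOXA13, a distal HOX factor, fell from 12.8, 12.2 and 11.2 to 3.85, 2.64 and 2.91 CPM (−1.94 ± 0.15), and the intestinal factor CDX2 by 2.55 ± 0.25. MSX1, a marker of uterine epithelium, fell by 1.01 ± 0.21 (adjusted p = 0.00953). Its controls were 128, 176 and 110 CPM, and its log2 fold change was −0.80 without untreated replicate 2. EN2, a homeobox factor of the embryonic midbrain, ran against the class, from 0.582, 0.414 and 0.826 to 25.9, 27.2 and 24.5 CPM (5.47 ± 0.17, adjusted p = 1.9e-12).

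Nuclear receptors fell in 17 and rose in 7 of 35. The orphan receptors of the NR4A family, induced early by many stimuli, were among the rises: NR4A1 went from 10.5, 13.3 and 11.6 to 107, 129 and 106 CPM (log2 fold change 3.25 ± 0.10) and NR4A3 from 0.388, 0.489 and 0.472 to 5.37, 5.89 and 4.32 CPM (3.50 ± 0.27). NR2F1, a regulator of cell fate, fell by 1.68 ± 0.11. The bHLH and PAS factors fell in 29 and rose in 11 of 59 (49.2% and 18.6%, against 35.3% and 33.8% of all genes). MYC, which drives growth, fell from 190, 182 and 176 to 56.4, 59.5 and 55.9 CPM (−1.67 ± 0.05), and MXD1, which competes with MYC for its partner MAX, rose from 19.5, 14.8 and 18.7 to 69.0, 72.2 and 61.0 CPM (1.95 ± 0.10). HES1, a target gene of Notch receptors, fell from 79.3, 105 and 83.6 to 37.8, 35.6 and 36.1 CPM (−1.29 ± 0.10), the opposite direction to the Notch ligand gene DLL1.

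Of the C2H2 zinc finger factors, the largest class, 218 of 600 were called higher and 183 lower, 45 and 27 of them at least 2-fold. The 27 falls are 4.50% of the class, against 8.82% of all genes. With library totals the calls were 169 and 245, and 34 and 56 at least 2-fold, so the balance of this class depends on the scaling. ZSCAN31 had the largest rise by the naming rule, from 7.37, 8.27 and 7.49 to 57.1, 60.0 and 59.6 CPM (log2 fold change 2.92 ± 0.08), and SALL2, a developmental factor, fell by 1.66 ± 0.08. Among KLF, SP and EGR factors 6 of 22 were called higher and 8 lower (27.3% and 36.4%, against 33.8% and 35.3% of all genes). With library totals the calls were 4 and 11. EGR3, an early growth response gene, rose by 2.85 ± 0.16 and KLF9, a factor responsive to steroids, fell by 1.20 ± 0.11. Forkhead, SOX and GATA factors gave 8 calls higher and 14 lower of 37 (21.6% and 37.8%, against 33.8% and 35.3% of all genes). The falls were thus near the share of all genes. With library totals the calls were 5 and 17. SOX8 rose from 0.646, 1.13 and 0.590 to 9.77, 10.7 and 10.6 CPM (3.63 ± 0.22), and SOX17, a factor of the uterine epithelium, fell by 1.08 ± 0.25 (adjusted p = 0.0101). The SOX17 controls were 37.2, 56.9 and 31.9 CPM, and its log2 fold change was −0.79 without untreated replicate 2. FOXQ1 fell by 1.77 ± 0.26. In the class of ETS, SMAD, TEAD and other signal-linked factors, 40 of 132 were called higher and 50 lower (26 and 61 with library totals). The main shares were 30.3% and 37.9%, against 33.8% and 35.3% of all genes. The NF-kB subunits NFKB2 and RELB, which act together in the noncanonical pathway, rose by 1.39 ± 0.06 and 1.69 ± 0.17, and TCF7 and ETV4, effectors of Wnt and of growth factor signaling, fell by 1.90 ± 0.11 and 1.23 ± 0.07.

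Outside the 5 groups the naming rule took the chaperone gene HSPA6 (log2 fold change 10.27 ± 0.36), HMOX1 and CRYAB as rises. HSPA6 was 9.48 without untreated replicate 2 and 11.04 without untreated replicate 3, and CRYAB, 7.55 ± 0.21 in all libraries, was 6.91 without untreated replicate 2. The falls were NEURL1B, a ubiquitin ligase that acts on Notch ligands such as DLL1, from 35.8, 41.9 and 38.8 to 2.08, 1.26 and 1.94 CPM, the mitochondrial protein gene NDUFA4L2 (−4.17 ± 0.33), and MAGED4, a gene with an identical copy. MAGED4 varied most, from 4.59, 6.43 and 14.4 to 0.610, 0.420 and 1.64 CPM; its log2 fold change of −3.30 ± 0.72 was −2.71 without untreated replicate 3 and −4.02 without treated replicate 3, and its adjusted p was 0.0527 without treated replicate 1. The HSPA6 promoter is shown because it holds both a heat shock element and an AP-1 site, at bases −74 and −139; it lies at chr1:161524390-161524539 on the plus strand, with both in capitals.
HSPA6: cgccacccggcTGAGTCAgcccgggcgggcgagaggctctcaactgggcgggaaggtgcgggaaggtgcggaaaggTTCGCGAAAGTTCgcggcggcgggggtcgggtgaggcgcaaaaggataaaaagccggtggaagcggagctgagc

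To set these matches beside all promoters, 6 motifs were searched on both strands of the RefSeq windows from 250 bases before to 50 bases after the start. A window was matched by symbol for 10704 of 13325 uniquely named tested genes and for 49 of the 70 named genes. The motifs were AP-1 (TGACTCA), the heat shock element (GAA, TTC and GAA in a row, each 2 bases from the next), the antioxidant response element core (TGACNNNGC), the metal response element core (TGCACNC or TGCGCNC), the CArG box and the NF-kB site. An AP-1 site followed by GC also matches the antioxidant core, as the one of HSPA6 does. An AP-1 site was present in 3.23% of all 10704 promoters, in 8.25% of the 812 of genes called at least 2-fold higher, in 14.8% (20) of the 135 called at least 8-fold higher and in 1.71% of the 875 called at least 2-fold lower. The 20 include CXCL8, IL11, F2RL2 and TUBB3. The heat shock element was present in 0.327%, 1.23%, 1.48% and 0.343% of the same promoters, and the CArG box in 1.17%, 1.72%, 2.22% and 1.03%; at 8-fold these were only 2 and 3 of 135 promoters.

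In the same order, the antioxidant core was found in 14.8%, 18.3%, 16.3% and 12.7% of promoters, the metal response core in 38.6%, 33.7%, 28.9% and 36.6%, and the NF-kB site in 12.7%, 11.8%, 11.9% and 14.2%. Only 19 promoters belonged to genes called at least 8-fold lower; 11 of them (57.9%) held the metal response core and none an AP-1 site, a heat shock element or a CArG box. Base composition moved with the groups: the median GC content was 65.3% over all promoters, 62.3% for genes at least 2-fold higher, 54.7% for those at least 8-fold higher and 68.0% for those at least 2-fold lower, and its part in the shares was not tested. A match is a run of letters and does not show that a factor binds there.

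**Figure D3:**
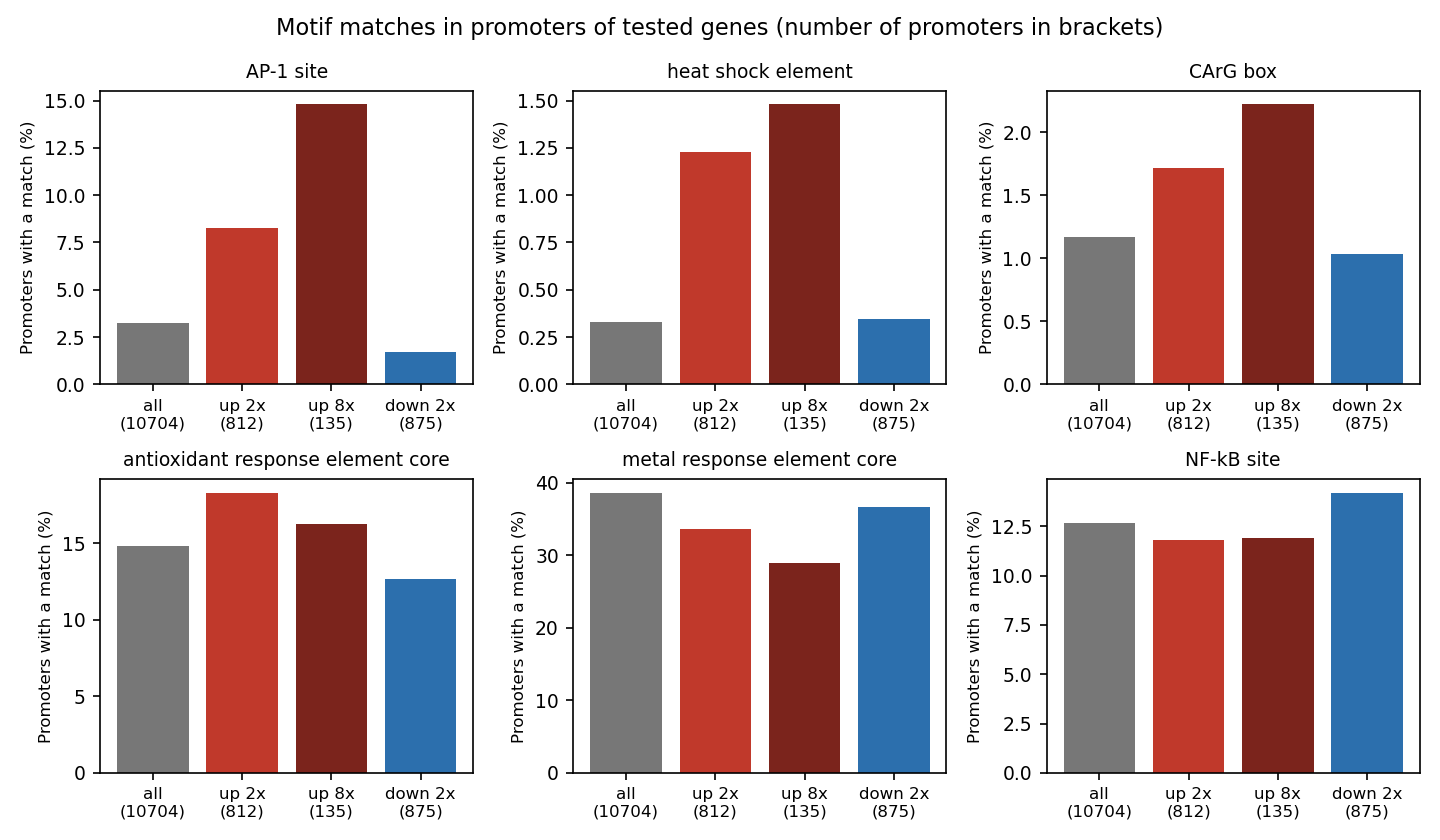
Share of RefSeq promoters with a match to each of 6 motifs, for all tested genes (grey), genes called at least 2-fold higher (red) and at least 8-fold higher (dark red), and genes called at least 2-fold lower (blue); the number of promoters is in brackets and each panel has its own axis. The AP-1 site has the steepest order, from 1.71% of promoters of 2-fold lower genes to 14.8% of those of 8-fold higher genes.

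The KLE libraries showed where this response was that of Ishikawa cells. The test of the difference between the 2 lines' responses called 6206 of 13663 genes (45.4%), 2848 with the Ishikawa change above that of KLE (20.8%) and 3358 with it below (24.6%). Of the 70 named genes, 56 differed: 30 of 35 rises and 25 of 35 falls were larger in Ishikawa, and 1 fall, that of LGR5, was larger in KLE (−3.67 against −2.44). Since these genes were named for the size of their Ishikawa change, the count favours that line. None was called in the opposite direction in KLE.

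For the largest rises the difference was of size. CXCL8 rose by 5.23 in Ishikawa and 1.41 in KLE (difference 3.77, adjusted p = 4.4e-09), DLL1 by 6.28 and 2.62 (3.61, 1.1e-09), THBS1 by 4.71 and 1.70 (2.96, 6.5e-15) and KRT17 by 5.47 and 1.83 (3.59, 1.3e-10). A few named genes changed in Ishikawa and showed little change in KLE. EGR3 had a log2 fold change of −0.12 in KLE (difference 2.92, adjusted p = 6.9e-09), DDR2 of 0.02 (1.68, 5.8e-05), carboxypeptidase M of 0.04 (−2.90, 2.1e-11) and ARHGAP28 of −0.18 (−2.35, 6.6e-07). For LRRC32 (−3.14 and −3.05), ROR2 (−2.81 and −3.04) and KCNAB2 (2.79 and 3.01) no difference was called, with adjusted p of 0.577, 0.804 and 0.709.

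**Figure D4:**
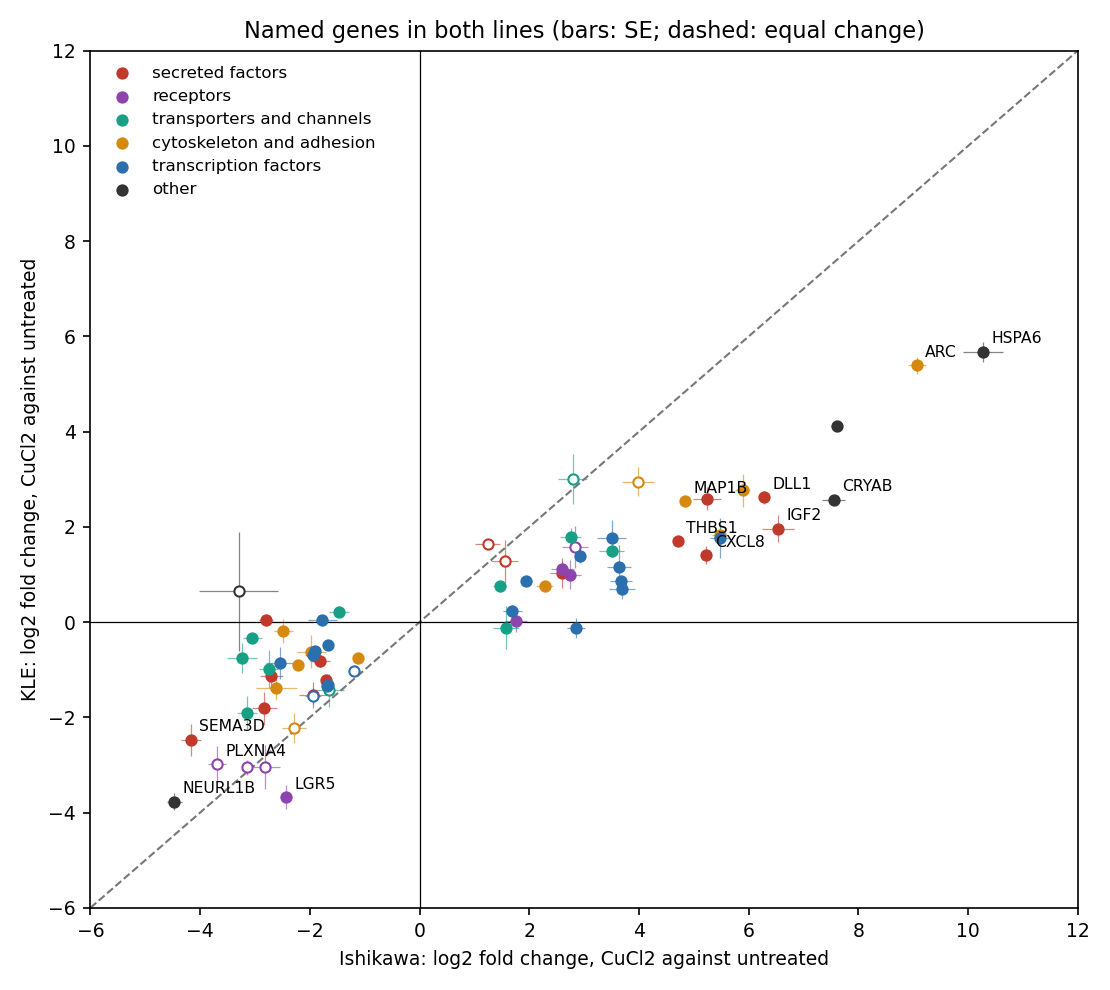
Log2 fold change with copper in KLE cells (vertical) against that in Ishikawa cells (horizontal) for the named genes tested in KLE, coloured by role; bars are SE, the dashed line marks equal change and open symbols are genes whose responses were not called different. Most rises lie below the dashed line, such as CXCL8 at 5.23 and 1.41, while LGR5 lies further from 0 in KLE.

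Some structural genes went opposite ways in the lines. KRT8 fell by 0.71 in Ishikawa and rose by 0.35 in KLE (difference −1.12, adjusted p = 1.2e-12), and KRT18 fell by 0.41 and rose by 0.31 (−0.78, 1.2e-07). ACTA2 rose by 2.71 in Ishikawa and fell by 0.64 in KLE (3.29, 7.3e-07). Over the class genes called in both lines, 92 of 1175 had opposite directions, and over all genes 350 of 5245.

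**Figure D5:**
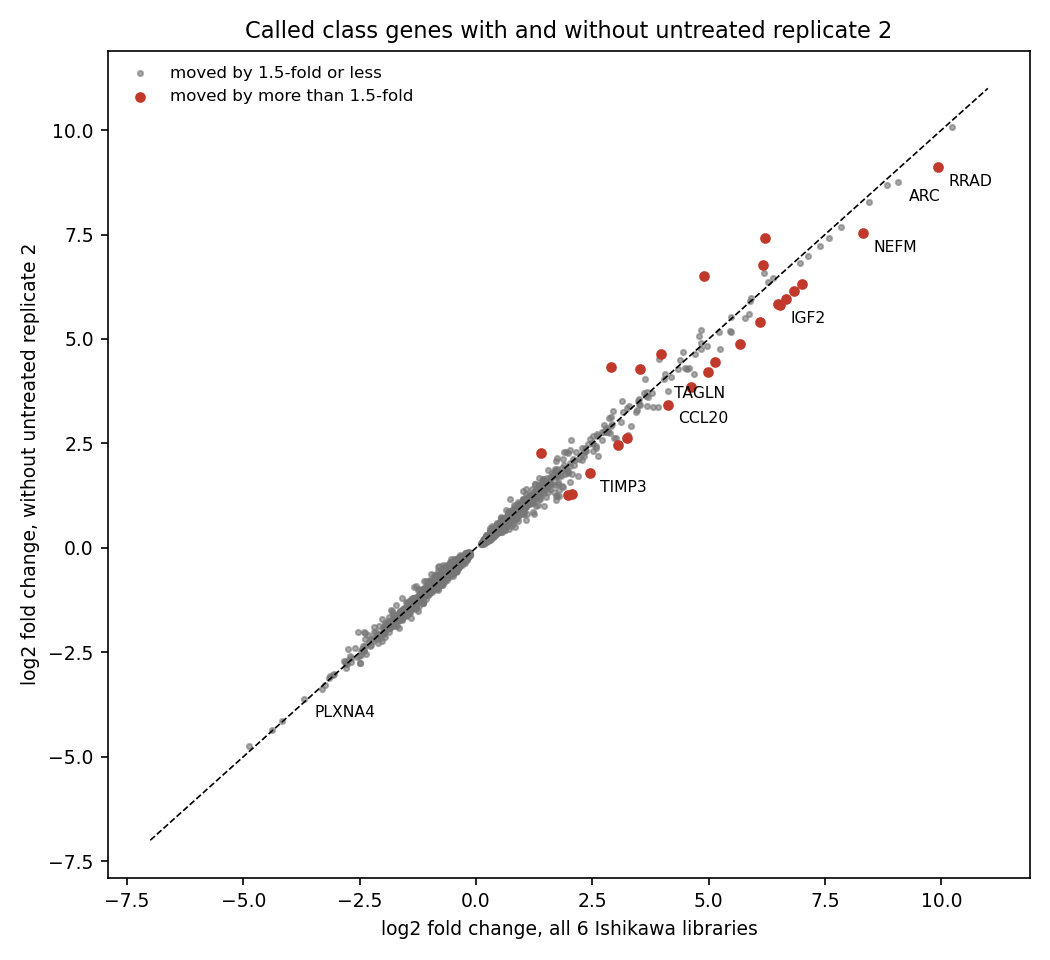
Log2 fold change of called class genes in all 6 Ishikawa libraries (horizontal) and without untreated replicate 2 (vertical), with red points for genes that moved by more than 1.5-fold. Of 1937 genes in both fits 25 moved that far, all of them rises such as CCL20 (4.12 to 3.43), 18 of them to a smaller change, and none changed sign.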

How the data were processed

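RNA-seq libraries of Ishikawa cells, 3 copper-treated and 3 untreated, were compared from the whole-number gene counts the authors deposited. The expected counts in another deposited table are the authors' estimates per gene before rounding and served only as a check of the whole counts. The authors' TPM values gave levels between genes. The submitters' processing notes name the build GRCh38.p14 and, as tools, RSEM, HISAT2 2.1.0, Bowtie2 2.2.8, fastp 0.18.0, R 4.2.2 and DESeq2, with no role for each; annotation and strand setting were not found in these sources.

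Genes were filtered with filterByExpr, scaled by TMM and tested with edgeR 4.0.16 (glmQLFit, glmQLFTest, R 4.3.3), two-sided, with Benjamini-Hochberg adjustment over all genes tested and a threshold of 0.05; a further call rule asked for a 2-fold change. The SE of a log2 fold change is its size divided by the square root of F, which understates the error of genes with few counts in a group. The difference between the lines was the interaction in a fit of all 12 libraries. DESeq2 1.42.0, limma 3.58.1, other scalings and filters, a replicate block and leaving out each library were alternatives. On simulated counts the share of false calls was somewhat above the nominal level, so calls near the threshold deserve caution.

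Named genes had the treated libraries all beyond the untreated ones, a mean of at least 2 CPM, at least 10 counts in the lower group, and the same call without untreated replicate 2; the 3 largest rises and falls of each role, the largest of each class with at least 10 tested members, and the 3 largest outside the roles were taken. Another 87 class genes were chosen as examples after their values were seen, as were the fold groups of the motif search. The members and lists were chosen with earlier results of these data known. A few genes and 1 gene class are not reported here.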

Additional observations from a re-analysis of the deposited data

Results flagged for a closer look

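The responses of 56 of the 70 named genes differed between Ishikawa and KLE cells by the interaction test (edgeR, adjusted p under 0.05). Over all genes 6206 of 13663 differed (45.4%), and the 70 were named for the size of their Ishikawa change, which favours a difference. Among the example genes, 6 were called in opposite directions in the lines. The log2 fold change in Ishikawa minus that in KLE was −1.26 for the integrin gene ITGA6, 3.29 for the smooth muscle actin gene ACTA2, −1.12 for the keratin gene KRT8, −0.78 for its partner KRT18, 1.58 for FOS and 1.77 for FOSB. The part of any technical difference between the lines in these values was not tested.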

How the results depend on the processing

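The 135 counts of calls over all genes recomputed under 15 alternatives each stayed within 1.5 times the reported ones. Of 2040 such counts for classes and roles 59 did not, for example receptors at least 2-fold higher, 29 and 54 without a count filter, and transcription factors at least 2-fold lower, 96 and 149 with library totals. Leaving out each library in turn gave 8546 to 9408 calls and 2234 to 2474 of at least 2-fold, and 5598 to 6530 differences between the lines. DESeq2 gave 8655 calls and limma-voom 9237. Upper-quartile scaling gave 3661 higher and 5722 lower calls and library totals 3370 and 6068, with the median log2 fold change of all genes at −0.125 and −0.167. Of 1050 values of named genes under alternatives 1049 kept direction and call. The naming rule already asked for the same call without untreated replicate 2 and took the largest changes, so this count was largely set by the choice of genes. The exception was MAGED4 (−3.10, adjusted p = 0.0527 by edgeR) without treated replicate 1. HSPA6 was 11.09 with limma-voom. Of 1305 values of the example genes, chosen after their values were seen, 1299 kept direction and call. JUN reversed to −0.03 with upper-quartile scaling, −0.07 with library totals and −0.04 without untreated replicate 1, and was called at 0.19 without untreated replicate 2. FOS lost its call with library totals (0.16) and in the fit of all 12 libraries (0.25); the cause was not tested. Of 510 class and role medians recomputed under alternatives 154 moved beyond the spread between libraries and 34 changed sign. With the replicate number as a block, 9355 genes were called (4586 higher, 4769 lower), 2246 at least 2-fold, and 6132 differed between the lines. The numbers were not taken to pair the samples, since same-numbered libraries correlated at 0.082, 0.201 and 0.081.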
